A study of Mus musculus with 12 samples.

Results

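The 10 genes described here encode antiviral effectors induced by type I interferon: the IFIT genes Ifit1, Ifit2 and Ifit3, the oligoadenylate synthetase genes Oas1a, Oas2 and Oas3, the related Oasl1 and Oasl2, and the dynamin-like GTPase genes Mx1 and Mx2. They were chosen by name, and all 10 were found by Ensembl identifier among the 14496 genes of the deposited table. RNA had been measured in entire tumors grown under the skin of BALB/C mice from Renca, a mouse line of renal carcinoma, and taken on day 14. The IK group held 6 tumors whose host also carried a tumor in the kidney, and the SC group held 6 tumors whose host carried none. Both groups received the same cell line by subcutaneous injection, no drug or gene change is named for either, and the age of the mice is not given in the sources used here. Tumor and stromal cells were extracted together, so a lower value can come from fewer cells of a type or from less RNA per cell, and these cannot be told apart. Nothing in the sources used here ties the tumors to individual mice, so each p reflects the spread among these 12 samples and may include technical spread.

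Type I interferons bind the receptor made of IFNAR1 and IFNAR2, which acts through the kinases JAK1 and TYK2. The complex ISGF3, which contains STAT2 and IRF9, then binds interferon-stimulated response elements in the promoters of its target genes. Interferon gamma signals through another receptor, and its targets overlap in part with those of type I interferon. IFIT proteins bind foreign RNA and hinder its translation. OAS enzymes sense double-stranded RNA and make short oligoadenylates as second messengers of the antiviral response. In the mouse, Oasl1 encodes an inhibitor of Irf7 mRNA translation. MX proteins trap viral components, but many inbred mouse strains, BALB/c among them, carry a defective Mx1. RefSeq lists both Mx1 and Mx2 as transcribed pseudogenes in its C57BL/6J annotation, so for these genes the values describe transcripts and not a working protein.

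The promoters of the effectors are shown because the response element is the feature through which ISGF3 acts. The RefSeq promoter table (build GRCm38.p6) gave windows for 7 effectors (all but Oas2, Mx1 and Mx2), and the 250 bases before the annotated start were searched on both strands for the core of the response element, taken from general knowledge as GAAA, then 2 bases of any kind, then GAAA again. It was found in 4 effectors: Ifit1 and Ifit3 with 2 matches each, Oas1a with 2 matches that overlap each other, and Oas3 with 1. Of 32851 such windows in the table, 2.98% held at least 1 match and 0.180% held at least 2. This pattern was not in the windows of Oasl1, Oasl2 or Ifit2, of which Ifit2 had 2 annotated starts. Effectors without a match included the largest log2 difference between groups, IK minus SC (Oasl2, -0.71), and the smallest (Oasl1, -0.0027), with Ifit2 at -0.39. Whether the matches go with the differences was not tested. The interferon gamma activated site, searched on both strands as TTC, then 3 bases of any kind, then GAA, was in 7.02% of all windows and in those of Oas1a and 1 start of Ifit2. Below, capitals mark each match to the core on either strand, and each sequence runs toward the start: Ifit1 from chr19:34640639-34640888 and Ifit3 from chr19:34583279-34583528 on the plus strand, Oas1a from chr5:120907526-120907775 and Oas3 from chr5:120777660-120777909 on the minus strand, and Oasl1 from chr5:114922990-114923239 on the plus strand, given as the effector with the smallest difference between groups.
Ifit1: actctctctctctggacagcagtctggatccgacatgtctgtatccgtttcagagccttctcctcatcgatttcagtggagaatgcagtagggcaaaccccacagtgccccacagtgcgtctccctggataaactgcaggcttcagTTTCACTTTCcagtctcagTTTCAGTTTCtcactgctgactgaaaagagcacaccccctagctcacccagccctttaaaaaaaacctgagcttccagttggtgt
Ifit3: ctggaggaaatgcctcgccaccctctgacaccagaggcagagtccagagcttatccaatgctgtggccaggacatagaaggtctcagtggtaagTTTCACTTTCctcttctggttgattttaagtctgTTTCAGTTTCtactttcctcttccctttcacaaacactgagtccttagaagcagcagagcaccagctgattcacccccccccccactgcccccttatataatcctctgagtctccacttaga
Oas1a: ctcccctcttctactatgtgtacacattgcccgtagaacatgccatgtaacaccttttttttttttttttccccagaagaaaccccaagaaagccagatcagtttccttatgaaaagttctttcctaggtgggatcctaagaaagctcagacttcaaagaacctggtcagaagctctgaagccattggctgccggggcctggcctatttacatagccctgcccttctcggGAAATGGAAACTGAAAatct
Oas3: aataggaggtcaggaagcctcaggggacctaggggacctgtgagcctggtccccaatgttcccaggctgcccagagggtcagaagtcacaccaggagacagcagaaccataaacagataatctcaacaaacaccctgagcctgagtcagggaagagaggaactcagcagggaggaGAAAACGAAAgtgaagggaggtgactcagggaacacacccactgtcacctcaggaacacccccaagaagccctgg
Oasl1: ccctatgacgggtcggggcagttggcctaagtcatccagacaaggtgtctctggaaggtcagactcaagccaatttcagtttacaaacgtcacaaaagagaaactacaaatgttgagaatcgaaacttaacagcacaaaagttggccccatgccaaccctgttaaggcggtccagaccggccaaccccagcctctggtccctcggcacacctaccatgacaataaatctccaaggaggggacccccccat
The first base of the matches lay 104 and 85 bases before the start of Ifit1, 156 and 122 before that of Ifit3, 20 and 14 before that of Oas1a and 75 before that of Oas3.

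Each tumor gave 53312559 to 66142468 recovered reads, and the keratin and kidney markers of Renca were present in every tumor, with 6 summed markers at 2382 to 2516 CPM (reads scaled to a common library size) in the IK group and 2280 to 2851 CPM in the SC group. The effectors were well covered, with 268 reads for the lowest value (Mx2) and 9232 for the highest (Oasl2), so the spread between tumors and not counting error limited the precision. Every tumor carried transcripts of all 10 effectors. Values are log2 CPM, and differences are the IK mean minus the SC mean, tested with limma over 14008 genes with Benjamini-Hochberg adjustment.

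All 10 effectors had a lower mean in the IK group, although Oasl1 differed by only -0.0027, and none passed an adjusted p of 0.05. A lower mean was seen in 46.7% of all genes tested, and 0.0% of all genes tested passed in either direction. The median difference of the effectors was -0.44, beside 0.01 over all genes tested. The range of the IK group overlapped that of the SC group for 10 of 10 effectors; the share of all genes with every IK tumor below every SC tumor was 0.2%. In limma 1 effector had an unadjusted p under 0.05 in the lower direction, as did 5.62% of all genes tested.

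**Figure D1:**
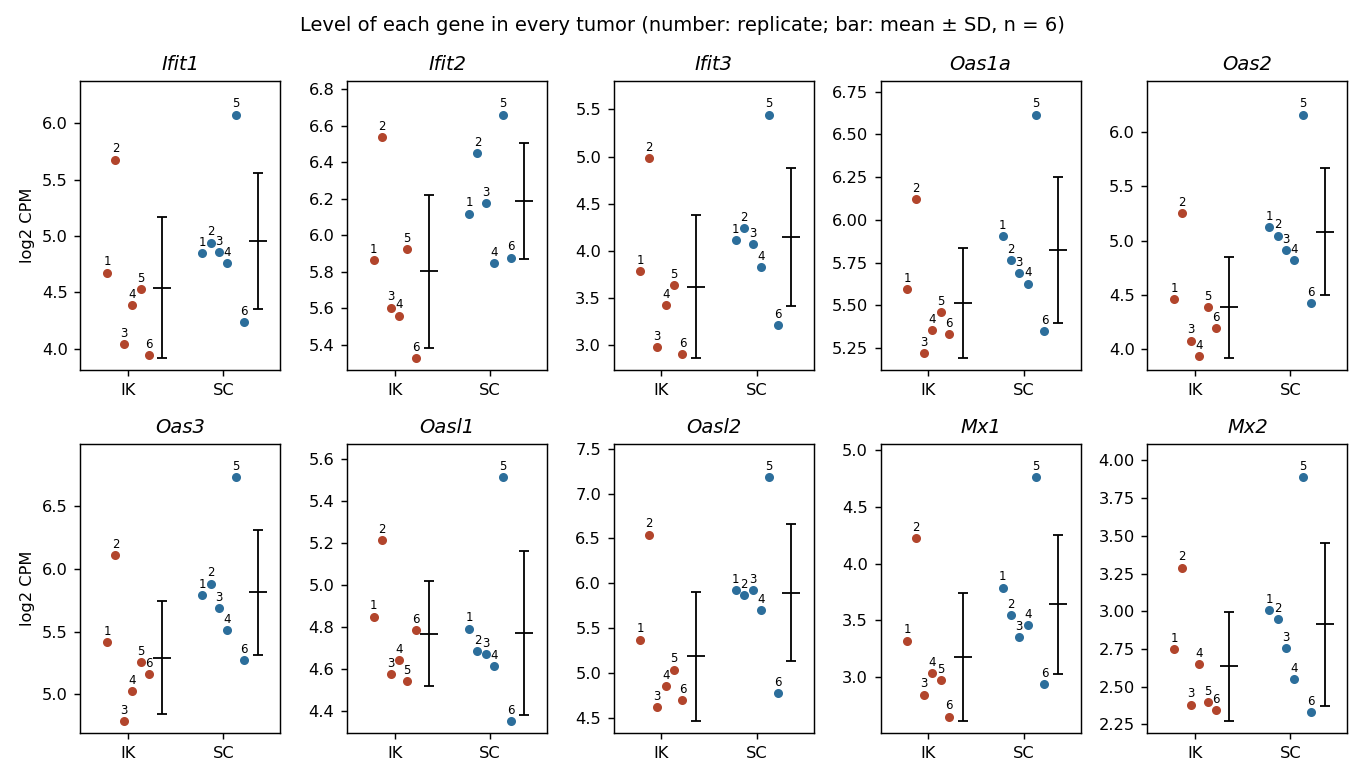
Log2 CPM of each of the 10 genes in every tumor of the IK and SC groups; numbers are replicates, and the bar is the mean ± SD of 6 tumors. Replicate 2 stands highest in the IK group and replicate 5 highest in the SC group in all 10 panels.

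Among the IFIT genes, Ifit1, whose product binds RNA with incompletely methylated caps, had log2 CPM of 3.94 at the lowest, 4.46 at the median and 5.68 at the highest in the IK group, against 4.23, 4.85 and 6.08 in the SC group. The highest IK tumor stood above 5 of the 6 SC tumors, and the 2 ranges overlapped over most of their length. Its mean was 4.54 ± 0.62 in the IK group and 4.95 ± 0.61 in the SC group (SD, n = 6 each), a difference of -0.41 (95% interval -1.10 to 0.27; limma adjusted p = 0.57). Ifit3, whose product binds IFIT1 and stabilizes it in human cells, had 2.91, 3.53 and 4.99 in the IK group at the lowest, median and highest tumor, and 3.21, 4.09 and 5.44 in the SC group. It tracked Ifit1 tumor by tumor, and its difference was -0.53 (95% interval -1.36 to 0.30; limma adjusted p = 0.55). Ifit2, an IFIT that is also linked to apoptosis, ran from 5.33 through a median of 5.73 to 6.54 in the IK group and from 5.85 through 6.15 to 6.66 in the SC group. Its lowest SC value, 5.85, lay above 3 of the 6 IK values, and the means differed by -0.39 (95% interval -0.80 to 0.03; limma adjusted p = 0.45).

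Of the OAS enzymes, Oas2 had the smallest p among the effectors. It lay at 3.94 at the lowest, 4.29 at the median and 5.25 at the highest in the IK group, against 4.42, 4.98 and 6.16 in the SC group. Below 4.43 lay 4 IK tumors and the lowest SC tumor, 1 IK tumor lay at 4.46, and the other 5 SC tumors lay at 4.82 or above. The means were 4.39 ± 0.47 in the IK group and 5.08 ± 0.58 in the SC group (SD, n = 6 each), so that the geometric mean of the IK group was 0.617 times that of the SC group. The difference was -0.70 (95% interval -1.29 to -0.11), with an unadjusted p of 0.024 and an adjusted p of 0.43 in limma. By exact permutation of the tumors it had p = 0.039, and 0.50 after adjustment over all genes. Oas3, which binds long double-stranded RNA, had 4.79, 5.21 and 6.11 in the IK group and 5.27, 5.74 and 6.73 in the SC group. Its interval ended just above 0, with a difference of -0.52 (95% interval -1.05 to 0.01; limma adjusted p = 0.44). Oas1a, an active synthetase of the large mouse Oas1 group, had 5.22, 5.41 and 6.12 in the IK group and 5.35, 5.73 and 6.62 in the SC group, and the difference was -0.31 (95% interval -0.73 to 0.12; limma adjusted p = 0.50).

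Oasl2, which unlike Oasl1 has kept synthetase activity in the mouse, had the largest difference of the effectors and Oasl1 the smallest. Oasl2 stood at 4.61 at the lowest, 4.94 at the median and 6.54 at the highest in the IK group, against 4.78, 5.90 and 7.18 in the SC group. At 5.37 or below lay 5 IK tumors and 1 SC tumor, and the other 5 SC tumors at 5.70 or above. Its difference was -0.71 (95% interval -1.54 to 0.12; limma adjusted p = 0.46). Oasl1 stood at 4.54, 4.72 and 5.21 in the IK group and at 4.35, 4.68 and 5.51 in the SC group. Its lowest tumor of all was in the SC group, and the means were 4.77 ± 0.25 in the IK group and 4.77 ± 0.39 in the SC group (SD, n = 6 each; 95% interval of the difference -0.37 to 0.37; limma adjusted p = 0.99). Whether the differences of Oasl2 and Oasl1 differ from each other was not tested.

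Mx1 and Mx2 were the lowest effectors. Mx1 had 2.65, 3.003 and 4.23 in the IK group at the lowest, median and highest tumor, against 2.94, 3.501 and 4.76 in the SC group, a difference of -0.47 (95% interval -1.13 to 0.19; limma adjusted p = 0.52). Mx2 had 2.34, 2.52 and 3.29 in the IK group and 2.33, 2.85 and 3.89 in the SC group, so its lowest tumors of both groups stood at nearly the same level. Its difference was -0.28 (95% interval -0.80 to 0.24; limma adjusted p = 0.61).

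**Figure D2:**
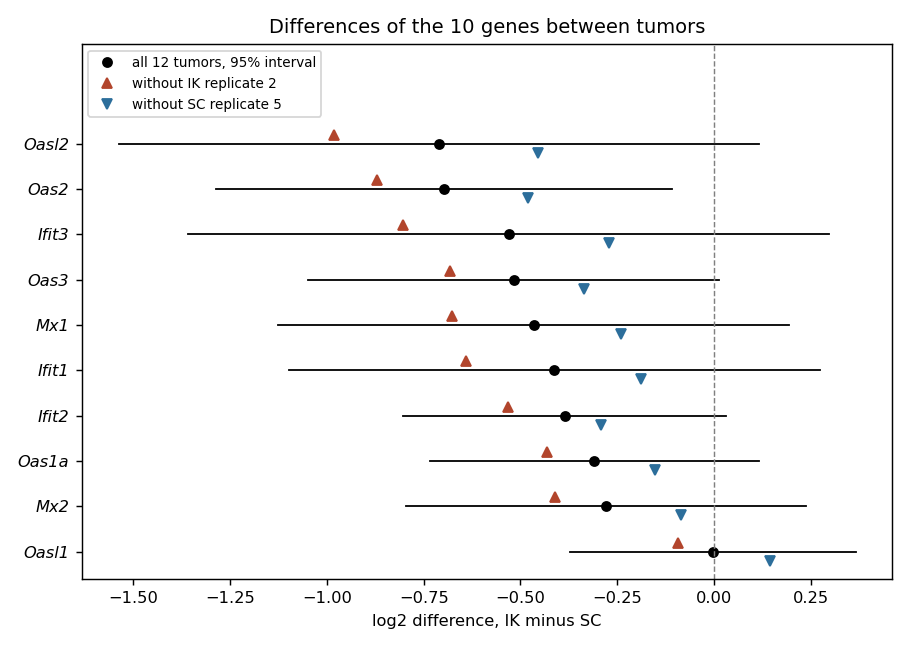
Log2 difference of each gene, IK minus SC, with limma's 95% interval over all 12 tumors (black) and the difference without IK replicate 2 (triangles pointing up) or without SC replicate 5 (triangles pointing down). Only the interval of Oas2 lies wholly below 0, and Oasl1 sits at 0.

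One tumor in each group set the upper end of every range. Replicate 5 of the SC group was the highest of all 12 tumors for 10 of 10 effectors, which held for 18.1% of all genes tested. Replicate 2 of the IK group was the second highest for 10 of 10 effectors, and thus the highest of its group, as for 28.6% of all genes tested. Over the effectors, SC replicate 5 stood above the mean of the other 5 SC tumors by a median of 1.23 (0.57 for Ifit2 to 1.55 for Ifit3), and IK replicate 2 above the other 5 IK tumors by 1.01 (0.53 for Oasl1 to 1.64 for Ifit3). At the low end, SC replicate 6 was the lowest of its group for 9 of 10 effectors, and IK replicate 6 the lowest of its group for 5. The shares of all genes were not computed for these counts, so they are not read as particular to the effectors. From the lowest to the highest of all 12 tumors, Oasl2 spanned 5.92-fold, Ifit3 5.80-fold and Oasl1 2.23-fold.

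These tumors moved the differences. Without IK replicate 2 the median of the effectors was -0.66, with Oasl2 at -0.98, Oas2 at -0.87 and Ifit3 at -0.80, and 0 of 10 effectors passed, with the smallest limma adjusted p at 0.078 for Oas2. In the same fit 1.04% of all genes tested were called lower. Without SC replicate 5 the median was -0.26, Ifit1 lay at -0.19, Mx2 at -0.08 and Oasl1 at 0.15, and the smallest limma adjusted p of an effector was 0.77, with 0.0% of all genes called lower. Without SC replicate 6 the median was -0.58, again with 0 of 10 effectors called (limma, smallest adjusted p = 0.20) and 0.0% of all genes. With weights for each tumor, which limma set to 0.32 for IK replicate 2, 0.48 for SC replicate 5 and 0.48 for SC replicate 6, Oas2 passed as 1 of 10 effectors at -0.74 (limma adjusted p = 0.045), while 2.93% of all genes tested were called lower.

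The effectors varied together over the tumors. As a description over 12 tumors, which share library and scaling, the correlation of log2 levels between effectors had a median r of 0.94 over the 45 pairs, the highest between Ifit1 and Ifit3 (0.997) and the lowest between Ifit2 and Oasl1 (0.63). Against the mean of the other 9 effectors, Oas1a had r = 0.99 and Oasl1 r = 0.84. Ifit2 and Ifit3 are neighbours in a cluster of IFIT genes, Oas2 and Oas3 lie next to each other, and so do Oasl1 and Oasl2, whose levels correlated at 0.82. Some effectors have near copies, and the part of shared reads in their likeness was not tested. In the newer GENCODE transcript set 51.2% of the 50-base stretches of Ifit3 also occur in Ifit3b, and 57.6% of those of Oas1a in other genes, chiefly Oas1g, so values of these genes are uncertain, while shared stretches made up 7.13% in Ifit1, 4.38% in Mx2, 4.37% in Mx1, 0.52% in Oas3, 0.14% in Oasl2 and 0.0% in Ifit2, Oas2 and Oasl1.

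Per length, Oas1a was the most abundant effector by these values and Mx2 the least in both groups. The places of Oas1a and Ifit3 are uncertain because of their shared stretches. Mean CPM per kilobase of exon in the IK group was 24.8 ± 6.26 for Oas1a, 14.8 ± 4.76 for Ifit2 and 10.6 ± 1.97 for Oasl1. Ifit1 (9.56), Ifit3 (8.03), Oasl2 (6.45), Oas3 (5.80) and Oas2 (4.93) followed on the same scale, ahead of Mx1 (2.56) and Mx2 (1.77). In the SC group the levels were 31.3 ± 10.7 CPM per kilobase for Oas1a and 19.0 ± 4.32 for Ifit2, then Ifit1 (12.7), Ifit3 (11.5), Oasl1 (10.8), Oasl2 (10.6), Oas3 (8.39) and Oas2 (8.22), with Mx1 (3.59) and Mx2 (2.22) last (SD, n = 6 each). By mean, Oasl1 stood above Ifit1 and Ifit3 in the IK group and below them in the SC group, but Ifit3 exceeded Oasl1 in 2 of 6 SC tumors, and on the log2 scale the mean gap of Ifit3 over Oasl1 was -0.04 there. Every pair of neighbours in these orders overlapped over the tumors, although within single tumors Oas1a stood above Ifit2 in 6 of 6 tumors of each group, and Oas2 above Mx1 likewise. Between Oasl2 and Oas3 the order by mean held in 2 of 6 IK tumors and 5 of 6 SC tumors.

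The genes whose pattern over the 12 tumors was most like the mean of the effectors were led by Irf7, the transcription factor that amplifies type I interferon production, with r = 0.99. Next came Ifi44, Ifit3b, the RNA sensor gene Ddx58 (RIG-I), Sp100, Ifi44l, Rtp4, the ubiquitin-like modifier gene Isg15, its conjugating enzyme gene Ube2l6 and the MHC class I-like gene H2-T24, with r from 0.99 to 0.98. Irf7 lay at 5.27 at the lowest, 5.57 at the median and 7.17 at the highest in the IK group, against 5.56, 6.53 and 8.02 in the SC group. Its difference was -0.76 (95% interval -1.60 to 0.09; limma adjusted p = 0.46). With the deviations from the group means alone, the 10 genes had r of 0.980 to 0.996 with the effectors. A close pattern was not particular to interferon genes. Over the 12 tumors, cytotoxic lymphocyte markers had r of 0.86 to 0.93 with the mean of the effectors, and pan-leukocyte markers 0.85 to 0.92. T cell markers had r of 0.87 to 0.92 and plasmacytoid dendritic cell markers 0.90 to 0.92. Macrophage markers lay at 0.80 (Csf1r) to 0.91 (Fcgr1), apart from Cd68 (0.02) and Mrc1 (-0.34). Renal markers ranged from -0.56 to 0.52.

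Of 11 interferon ligand genes looked for, Ifng could be followed, although it did not pass the filter on low values and was not tested. It had 1 to 114 reads in the IK tumors and 13 to 135 in the SC tumors, with the 114 reads in IK replicate 2 and the 135 in SC replicate 5. The other 5 IK tumors had 12 reads or fewer. The other 10 ligand genes, Ifnb1 and the interferon alpha genes among them, were not analysed here.

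Receptor genes had small differences. Ifnar1 had a mean of 6.87 ± 0.06 in the IK group and 6.98 ± 0.08 in the SC group (SD, n = 6 each), a difference of -0.11 (limma adjusted p = 0.43), and Ifnar2 differed by -0.15 and Il10rb by -0.10 (limma adjusted p = 0.45 and 0.47). Of the 6 receptor genes 0 were called and 3 had a lower mean, with a median of -0.05. Of the 8 signalling genes reported 7 had a lower mean and 0 were called, with a median of -0.22. Stat2 and Irf9, whose products belong to ISGF3, lay at -0.44 and -0.30, and Irf1, a factor induced chiefly by interferon gamma, at -0.57 (limma adjusted p = 0.44 to 0.47). Without IK replicate 2, Irf1 was called lower as 1 of the 8, at -0.83 (limma adjusted p = 0.047), beside 1.04% of all genes tested. Without SC replicate 5 it lay at -0.48 (limma adjusted p = 0.77), and 0 of the 8 were called, beside 0.0% of all genes called lower. With tumor weights 3 of the 8 signalling genes and 1 of the 6 receptor genes were called lower, beside 2.93% of all genes.

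Negative regulators had a lower mean in 6 of 7 genes, with a median of -0.22 and 0 called. Socs1, an inhibitor of JAK kinases, lay at -0.83, the phosphatase gene Ptpn6 at -0.34, Isg15 at -0.42 and the ISG15 protease gene Usp18 at -0.19 (limma adjusted p = 0.43 to 0.53). Among 14 sensor and adaptor genes 12 had a lower mean, with a median of -0.23 and 0 called. The nucleic acid sensor Zbp1 (-1.26), the DNA receptor gene Tlr9 (-0.71) and Dhx58, which encodes LGP2 (-0.45), differed most (limma adjusted p = 0.43, 0.43 and 0.50). Zbp1 was called lower without IK replicate 2, at -1.68 (limma adjusted p = 0.036), beside 1.04% of all genes tested. Without SC replicate 5 it lay at -1.04 (limma adjusted p = 0.77), and 0 of the 14 were called, beside 0.0% of all genes called lower. With tumor weights 2 of the 7 regulators and 2 of the 14 sensor and adaptor genes were called lower, beside 2.93% of all genes.

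Other IFIT and OAS genes had a lower mean in 5 of 6 cases, with a median of -0.33 and 0 called. Ifit3b (-0.53), Oas1b (-0.43) and Oas1g (-0.33) led them, though Ifit3b and Oas1g share sequence with effectors. The list of 25 other interferon-induced antiviral genes had a median of -0.44, with 25 of 25 lower and 0 called. Its largest differences were those of Epsti1 (-0.77), Parp14 (-0.63) and the tetherin gene Bst2 (-0.63), and Rsad2, which encodes viperin, lay at -0.42 (limma adjusted p = 0.43, 0.44, 0.43 and 0.52). Without IK replicate 2, Bst2 was called lower as 1 of the 25, at -0.87 (limma adjusted p = 0.045), beside 1.04% of all genes tested. Without SC replicate 5 it lay at -0.51 (limma adjusted p = 0.77), and 0 of the 25 were called, beside 0.0% of all genes called lower. With tumor weights 3 of the 25 were called lower, beside 2.93% of all genes.

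**Figure D3:**
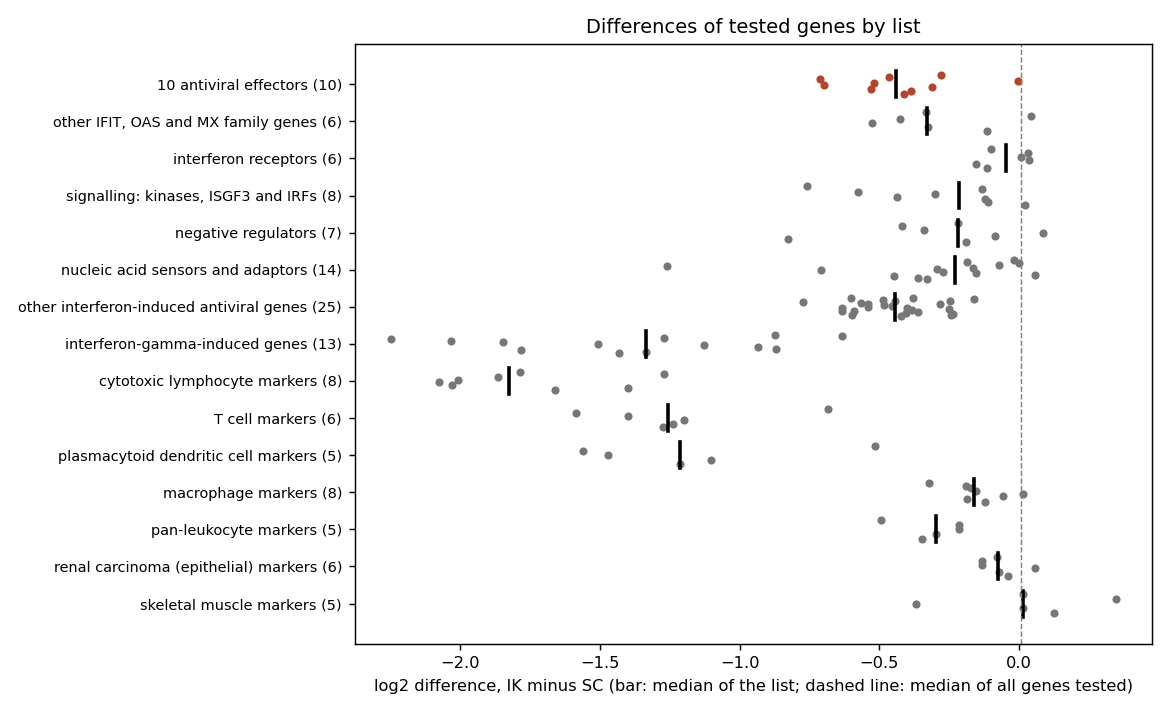
Log2 difference, IK minus SC, of every tested gene by list, with the median of each list as a bar and the median of all genes tested as a dashed line; the number of tested genes is in parentheses. The 10 effectors lie between -0.71 and 0, and the 13 interferon-gamma-induced genes between -2.25 and -0.63.

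Genes listed as induced by interferon gamma, whose targets overlap in part with those of type I interferon, had a larger median difference than the effectors. Whether the 2 kinds of genes differ in this was not tested. The 13 tested genes of that kind, mostly GBP and IRG GTPases and CXCR3 chemokines, had a median difference of -1.34, with Cxcl9 at -2.25, Tgtp1 at -2.03 and Iigp1 at -1.85. None passed over all genes with 12 tumors (limma adjusted p = 0.43 for each of the 3). Without IK replicate 2, 13 of these 13 genes were called lower and 0 of the 10 effectors, with 1.04% of all genes called lower in that fit. That tumor was the highest IK tumor in the mean of these genes (7.97 log2 CPM, others at most 5.69). Leaving it out therefore lowers the IK mean. Without SC replicate 5, 0 of the 13 were called and their median was -1.17, beside 0.0% of all genes called lower. With tumor weights, the lowest of which fell on IK replicate 2 (0.32), 13 of 13 and 1 of the 10 effectors were called lower, beside 2.93% of all genes. Both groups of genes were high in IK replicate 2 and SC replicate 5. Over the 12 tumors the effectors had r of 0.56 (Oasl1) to 0.91 (Oasl2) with the mean of the gamma-induced genes. The 2 groups of genes parted in SC replicate 3, a contrast chosen after the values were seen. Its mean over the gamma-induced genes was 7.66 log2 CPM, beside 7.79 in SC replicate 5, while its mean over the effectors was 4.81, beside 5.90. SC replicate 5 exceeded SC replicate 3 for 10 of 10 effectors by a median of 1.18, and for 9 of 13 gamma-induced genes by a median of 0.10, beside 47.9% of all genes tested. IK replicate 2 stood above SC replicate 5 for 11 of the 13 gamma-induced genes and for 0 of the 10 effectors. The share of all genes was not computed for this contrast. Both effector counts follow from SC replicate 5 being the highest of all 12 tumors for 10 of 10 effectors, and add nothing to it. All values in these contrasts are of single tumors, and no test was made of them.

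**Figure D4:**
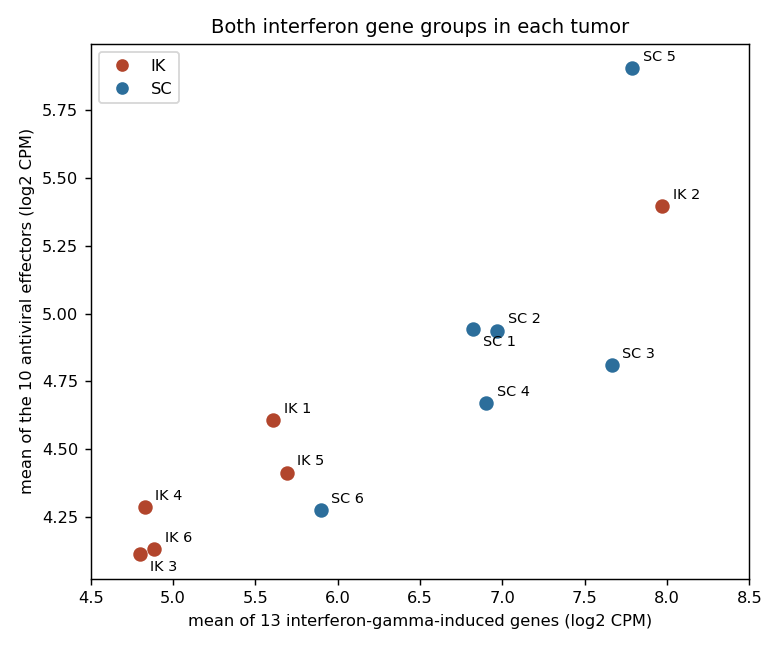
Mean log2 CPM of the 10 antiviral effectors (vertical) against the mean of 13 interferon-gamma-induced genes (horizontal), 1 point per tumor, labelled by group and replicate. SC 3 lies close to SC 5 on the horizontal axis (7.66 and 7.79) and apart from it on the vertical one (4.81 and 5.90).

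**Figure D5:**
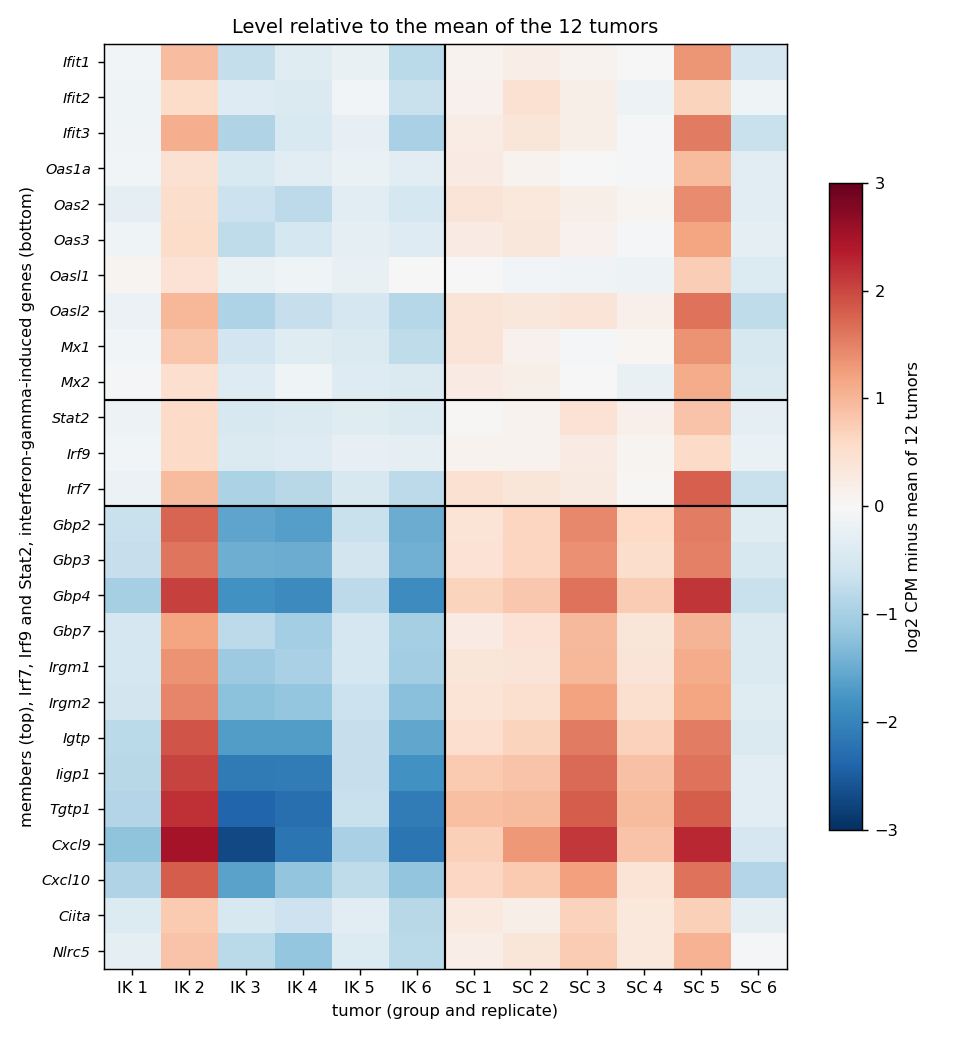
Log2 CPM of each gene in each tumor minus its mean over 12 tumors, with IK tumors left of the line and SC tumors right; the effectors are at the top, Stat2, Irf9 and Irf7 in the middle and the interferon-gamma-induced genes at the bottom. The columns of IK replicate 2 and SC replicate 5 are high throughout, and that of SC replicate 3 is high in the bottom block.

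Lymphocyte, plasmacytoid dendritic cell and pan-leukocyte markers all had lower means in the IK group, and none passed the test. The 8 cytotoxic lymphocyte markers all had lower means (median -1.83), and their summed level was 7.21 to 93.5 CPM in the IK group (median 12.9) and 15.0 to 119 CPM in the SC group (median 47.4). Without IK replicate 2, 4 of these 8 and 2 of the 6 T cell markers were called lower, beside 1.04% of all genes tested. Without SC replicate 5, 0 of these 8 and 0 of the 6 were called, beside 0.0% of all genes called lower. With tumor weights, 8 of 8 cytotoxic, 6 of 6 T cell, 2 of 5 pan-leukocyte and 1 of 5 plasmacytoid dendritic cell markers were called lower, beside 2.93% of all genes tested. The 6 T cell markers were also all lower (median -1.26), with sums of 13.4 to 69.8 CPM in the IK group and 19.6 to 73.5 CPM in the SC group. Lck weighed most in these sums, with mean log2 CPM of 3.49 in the IK group and 4.17 in the SC group. It had the smallest difference of the 6 (-0.68). The 5 measured markers of plasmacytoid dendritic cells, known producers of type I interferon, were lower as well (median -1.21), with sums of 5.09 to 40.5 CPM in the IK group and 9.51 to 70.3 CPM in the SC group. Their sum was 40.5 CPM in IK replicate 2, 70.3 in SC replicate 5 and 23.3 in SC replicate 3. SC replicate 5 exceeded SC replicate 3 for 5 of 5 of these markers (median 1.63), for 8 of 8 cytotoxic markers (median 0.89, with sums of 119 and 62.8 CPM) and for 6 of 6 T cell markers (median 0.42). It did so for 6 of 8 macrophage markers (median 0.08), 3 of 6 renal markers (median -0.04) and 47.9% of all genes tested. This contrast of single tumors was chosen after the values were seen, and was not tested. Macrophage markers had a lower mean in 7 of 8 genes (median -0.16), with sums of 2055 to 2825 CPM in the IK group and 2028 to 2728 CPM in the SC group. Pan-leukocyte markers were lower in 5 of 5 genes (median -0.30), at 492 to 838 CPM in the IK group and 487 to 905 CPM in the SC group, and the renal markers in 5 of 6 (median -0.07). Skeletal muscle markers were lower in 1 of 5 genes (median 0.02), with sums of 34.8 to 176 CPM in the IK group and 2.65 to 381 CPM in the SC group, the lowest in SC replicate 6 and the highest in SC replicate 5. None of the markers was at 0 in all tumors, 0 of these lists' genes were called, and the part of these cells in the effectors' differences was not tested.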

How the data were processed

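RNA of 12 whole subcutaneous Renca tumors, 6 in the IK and 6 in the SC group, was sequenced. Per the labels' protocols, libraries came from total RNA with a TruSeq kit. Build mm9 and the tools limma, HTSeq, TopHat 1.4.1 and CASAVA 1.8.2 are listed per the submitters' processing notes, while settings and strand handling are not given in the sources used here. How reads of overlapping genes were assigned is therefore not known. The authors deposited log2 values for 14496 genes, of the form log2 CPM with 0.5 reads added: 100% of values came out as whole reads within 0.001. Every gene had a log2 value of at least 0 in at least 2 tumors. Symbols were matched by identifier for 14004 genes.

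Genes at log2 0 or above in at least 6 tumors were tested (14008), with no further scaling or pseudocount, by limma 3.58.1 in R 4.3.3 (variance trend, two-sided, Benjamini-Hochberg, threshold 0.05), tested on simulated data first. Exact permutation ran over 924 assignments (smallest p 0.0022). Tumor pairs within groups differed by 13.2 to 164 chi-square per degree of freedom, so every library was counted as its own sample. Exon lengths and shared 50-base stretches came from GENCODE vM21, and promoters from RefSeq. Effectors and lists were chosen with earlier results of these data known, and some pathway genes were left out of the lists and are not reported here. Named genes were all effectors, a set of fixed pathway genes, the 3 largest differences per pathway list where no gene passed, and the 10 genes most like the effectors. Other filters, scalings, variance models, tumor weights, a replicate block and leaving out each tumor were tried; voom on recovered reads and permutation over all genes were added after seeing the data. Intervals are 95% limma intervals.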

Additional observations from a re-analysis of the deposited data

Results flagged for a closer look

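For 74 combinations of a gene or a mean with a group, the gap between an extreme tumor and its nearest neighbour was compared with the range of the group of 6 by Dixon's test at the 95% level. Of these 16 exceeded it, 15 of them through IK replicate 2. The 5% that chance alone gives applies to independent groups. These genes vary together over the same tumors, and many were named for large differences, so the count cannot be set against it. The share of all genes tested that would be flagged was not computed. The effectors themselves did not. Their highest tumor stood off by 0.506 to 0.607 of the range in the IK group and by 0.261 to 0.622 in the SC group. The smallest flagged shares were 0.626 for both Tgtp1 and Tlr9 in the IK group, so the largest effector share fell only just short. Whether the effectors differ in this from the flagged genes was not tested. In the IK group, replicate 2 stood highest and apart in 15 cases. Signalling genes among them were Stat2 (7.31 log2 CPM, others at most 6.57), Irf9 (6.35), Irf1 (7.51), Ifnar2 (6.40), Socs1 (3.30) and Ptpn6 (6.87). Sensors and antiviral genes were Zbp1 (7.66), Tlr9 (4.48), Rsad2 (5.66), Parp14 (8.15) and Bst2 (8.17). Gamma-induced genes were Cxcl9 (8.10), Tgtp1 (8.48) and Iigp1 (9.69), and their mean over 13 genes (7.97, others at most 5.69). In the SC group, replicate 5 stood apart for Isg15 (6.90, others at most 5.88).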

How the results depend on the processing

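The median difference of the effectors kept its negative sign under every alternative run, at -0.66 to -0.26 with single tumors left out, and 9 of the effectors kept a negative sign as well. Oasl1 turned positive with quantile scaling (0.0039) and median scaling (0.011), and lay at -0.092 to 0.146 with single tumors left out. The number of genes called was 0 with all tumors, 1 without the variance trend, 545 with tumor weights and 0 to 171 with single tumors left out, the 171 without IK replicate 2. Effectors called numbered 0 throughout, except 1 (Oas2, -0.74) with tumor weights. Oas2 also had an unadjusted exact permutation p of 0.039. The replicate block gave 0 genes and 0 effectors called at a median of -0.44. Same-numbered tumors correlated at -0.31 to 0.45 in their deviations, so the numbers were not taken as pairs. In all genes tested with 12 tumors, 787 had an unadjusted limma p under 0.05 in the lower and 821 in the higher direction. Genes too low for the table were not analysed here.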
